A study of Mus musculus with 6 samples.

Results

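The genes described are 10 core components of transforming growth factor beta (TGF-beta) signalling: the ligands Tgfb1, Tgfb2 and Tgfb3, the receptors Tgfbr1, Tgfbr2 and Tgfbr3, the signal transducers Smad2 and Smad3, and the latent TGF-beta binding proteins Ltbp1 and Ltbp3. They were taken by symbol from the authors' table of 16832 genes, which held all 10. Mouse embryos at embryonic day 9.5 were dissected, and RNA of the second heart field region was amplified and sequenced. The Hoxb1 gain-of-function samples (GoF, genotype Hoxb1GOF;Mef2c-Cre) carried a gain-of-function allele of the homeobox gene Hoxb1 together with Mef2c-Cre, and the controls (CTRL) carried Mef2c-Cre, so Cre was present in both groups. Mef2c-Cre drives recombination in second heart field cells and their descendants, whereas the dissected region also holds other cells, so fewer cells of a type and less RNA per cell cannot be told apart. The values cover GoF replicates 1, 2 and 3 and CTRL replicates 2 and 3. CTRL replicate 1 was not analysed here. Whether replicates are separate embryos or pools is not in the labels, so each p-value measures only the spread between these libraries.

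TGF-beta ligands are secreted as latent complexes, in which a latent TGF-beta binding protein tethers the ligand to the extracellular matrix. Once freed, the ligand binds the type II receptor TGFBR2, which phosphorylates the type I receptor TGFBR1. The active type I receptor phosphorylates SMAD2 and SMAD3, which join SMAD4 and enter the nucleus to control target genes. In the embryonic heart the pathway is known for its part in forming cushion mesenchyme, septating the outflow tract and remodelling the pharyngeal arch arteries, and Tgfb2 is the ligand whose loss in mice gives cardiac outflow and septal defects.

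GoF libraries held 34260116 to 44191917 reads, and the CTRL libraries held 44384354 and 34342568. Hoxb1 had 1021, 1003 and 1041 normalized counts in GoF replicates 1, 2 and 3, against 751.6 and 610.2 in CTRL replicates 2 and 3 (log2 fold change 0.59, SE 0.12, limma adjusted p = 0.0147). Its call was lost without GoF replicate 1 (limma adjusted p = 0.0601) and after removal of the GC trend (0.251). Mitochondrial genes took 35.7% to 37.4% of the reads in GoF, against 44.4% to 50.7% in CTRL. Of 10 second heart field marker genes 9 were in the table, and their summed level was 13881 to 14356 normalized counts in GoF and 14714 to 14787 in CTRL. The library of GoF replicate 1 resembled an average of replicates 2 and 3. Across 9082 genes whose mean reached 200 normalized counts, its log2 distance from their average had an SD 0.279 times as large as that of their own difference, where independent libraries of equal spread would give 0.866. Among the 10 genes, 8 had GoF replicate 1 between replicates 2 and 3, against 62.9% of all genes tested, and Tgfb1 and Tgfb3 did not. Calls are therefore also given without that library. Fold changes across all genes followed the base composition of transcripts (Spearman rho = 0.56 between log2 fold change and GC content over 16266 genes, which are not independent replicates), so calls are also given with that GC trend removed from every library. Gene coordinates are those of GENCODE M21 on GRCm38 (mm10).

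The promoters of Tgfb2, Smad3 and Tgfbr1 are shown because Tgfb2 was the most abundant ligand, Smad3 had the lowest adjusted p of the members that rose, and Tgfbr1 was the member that fell. Each runs 300 bases 5′ to 3′ on the strand of the gene, from 250 bases before the transcription start to 50 after it, as RefSeq gives it on GRCm38.p6. Capitals mark a GC box (GGGCGG, a site of the Sp1 type) or a TATA box (TATAAA), searched on both strands.
Tgfb2, chr1:186705940-186706239, minus strand: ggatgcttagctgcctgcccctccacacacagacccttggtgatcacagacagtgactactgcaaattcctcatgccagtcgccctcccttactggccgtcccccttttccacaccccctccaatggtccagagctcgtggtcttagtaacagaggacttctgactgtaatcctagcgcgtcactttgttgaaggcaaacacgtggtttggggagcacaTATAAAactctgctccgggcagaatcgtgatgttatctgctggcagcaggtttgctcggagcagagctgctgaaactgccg
Smad3, chr9:63757945-63758244, minus strand: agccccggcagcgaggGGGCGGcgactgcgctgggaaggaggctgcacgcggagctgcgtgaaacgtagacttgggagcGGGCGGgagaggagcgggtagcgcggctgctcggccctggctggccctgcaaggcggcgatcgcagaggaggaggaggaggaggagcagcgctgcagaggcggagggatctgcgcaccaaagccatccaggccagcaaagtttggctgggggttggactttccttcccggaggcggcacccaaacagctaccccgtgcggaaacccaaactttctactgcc
Tgfbr1, chr4:47352972-47353271, plus strand: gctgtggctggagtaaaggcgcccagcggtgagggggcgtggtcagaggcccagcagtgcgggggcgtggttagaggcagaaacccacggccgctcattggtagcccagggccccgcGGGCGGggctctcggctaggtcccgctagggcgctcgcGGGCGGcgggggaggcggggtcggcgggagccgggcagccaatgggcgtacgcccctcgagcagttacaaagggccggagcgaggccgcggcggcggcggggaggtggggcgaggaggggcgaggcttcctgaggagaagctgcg

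The Tgfb2 window had a TATA box that begins 31 bases before the start, no GC box and a GC content of 54.3%. The Smad3 and Tgfbr1 windows each had 2 GC boxes and no TATA box, at GC contents of 67.7% and 74.7%. GC boxes were found in 35.7% of the 32851 RefSeq promoter windows and TATA boxes in 13.6%. RefSeq gave 9 windows for 7 of the 10 genes, with a second start each for Tgfbr1 and Ltbp1. Among these 9, a GC box was found in 3 (Tgfb1, with 6, Smad3, and 1 of the 2 of Tgfbr1), and a TATA box in that of Tgfb2. The paired Hox and Pbx motif TGATNNAT was in none of the 9 and in 8.85% of all windows, and the palindrome GTCTAGAC, formed of 2 Smad boxes, was in none of the 9 and in 0.213% of all. Entries for Tgfb3, Tgfbr3 and Smad2 were not used here.

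In GoF, Smad3 and Tgfb3 rose and Tgfbr1 fell, with changes of 1.35-fold, 2.02-fold and 0.75-fold, and 7 of the 10 genes did not pass the threshold (limma, Benjamini-Hochberg adjusted p under 0.05 over 16794 genes tested). All 10 passed the filter of a mean of at least 10 normalized counts. Across all genes tested 12.2% were called higher and 10.9% lower (23.2% either way), so counts of 2 and 1 in 10 are near the background. The median log2 fold change of the 10 genes was 0.14, against -0.0073 over all genes tested. GoF and CTRL values did not overlap for 5 of the 10, against 54.9% of all genes tested. Tgfb3, Smad3 and Ltbp3 were higher in all GoF libraries (27.3% of all genes tested), and Tgfbr1 and Smad2 lower (27.6%). After removal of the GC trend 0 of the 10 passed (limma; 3 had an unadjusted p under 0.05, and 6.44% of all genes were called). Leaving out GoF replicate 1, 2 or 3 also gave 0 of 10 (limma; 4, 3 and 5 had an unadjusted p under 0.05), while 7.34%, 10.3% and 15.2% of all genes were called. DESeq2 and edgeR were run on the 5 libraries without a GC correction. There edgeR called the same 3 genes (22.6% of all genes), and DESeq2 called these and Tgfb2 (26.5%).

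**Figure D1:**
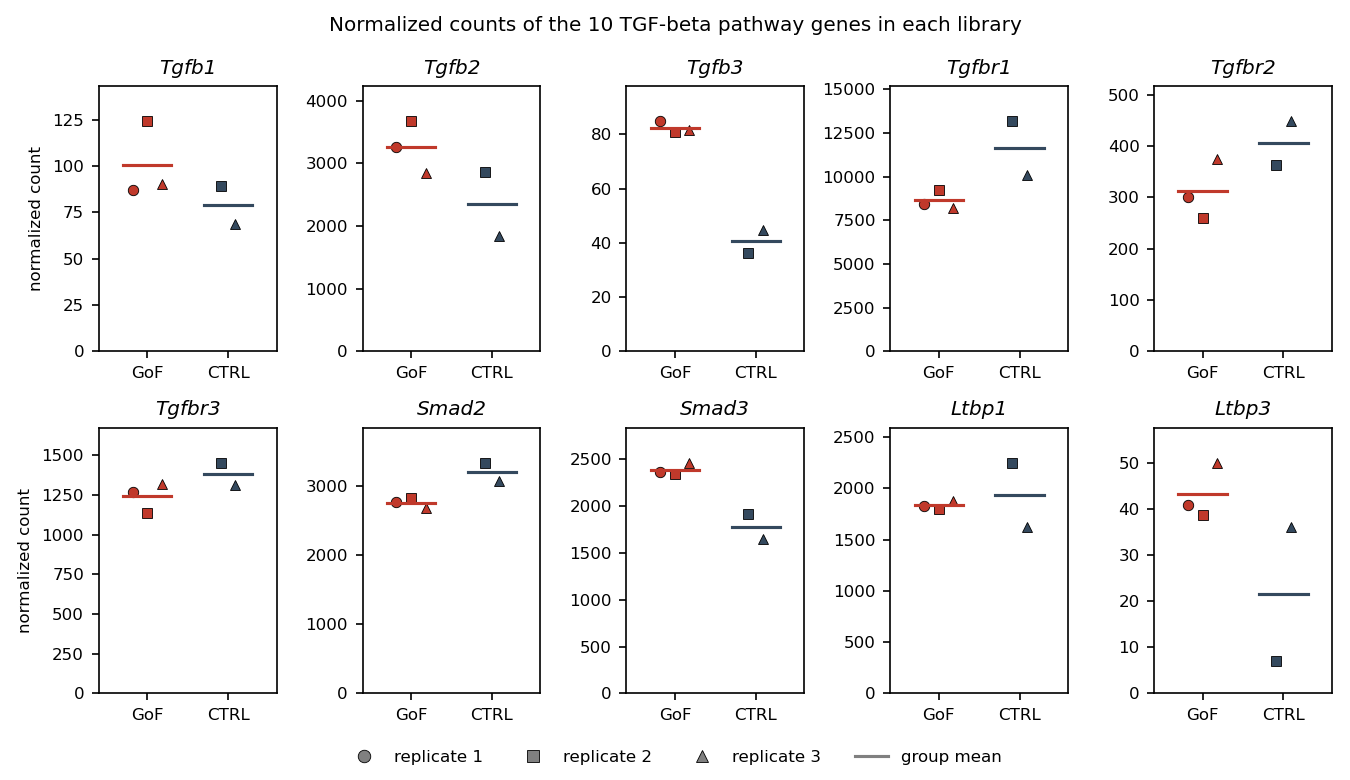
Normalized count of each of the 10 genes (y axis, starting at 0, one scale per panel) in 3 GoF and 2 CTRL libraries; symbols give the replicate and lines the group mean. GoF points lie above all CTRL points for Tgfb3, Smad3 and Ltbp3 and below them for Tgfbr1 and Smad2; in the other 5 panels the groups overlap.

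Levels of different genes were compared as normalized counts per kb of the longest GENCODE transcript. The type I receptor gene Tgfbr1 ranked first, at 1500.4 ± 93.8 per kb in GoF (SD, n = 3) and at 2294 and 1751 per kb in CTRL. Tgfb2 ranked second, with 638 ± 82.0 per kb in GoF (SD, n = 3) against 561 and 359 in CTRL, and its range over the 5 libraries, 359 to 720, overlapped that of its neighbour Smad3, 323 to 484. Smad2 (331 to 412 per kb) overlapped Smad3 above it and Ltbp1 (244 to 337 per kb) below it. Tgfbr3 lay at 187 to 239 per kb and did not overlap Ltbp1. A gap followed: Tgfbr2 lay at 32.2 to 55.5, Tgfb1 at 26.7 to 48.4, Tgfb3 at 10.7 to 25.2 and Ltbp3 at 1.23 to 8.76 per kb. Within that lower group Tgfbr2 and Tgfb1 overlapped, and the other neighbours did not. Per coding kb, 2 pairs of neighbours changed places: Smad2 (mean 2090 over the 5 libraries) was above Smad3 (1681), and Tgfbr3 (509) above Ltbp1 (365).

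**Figure D2:**
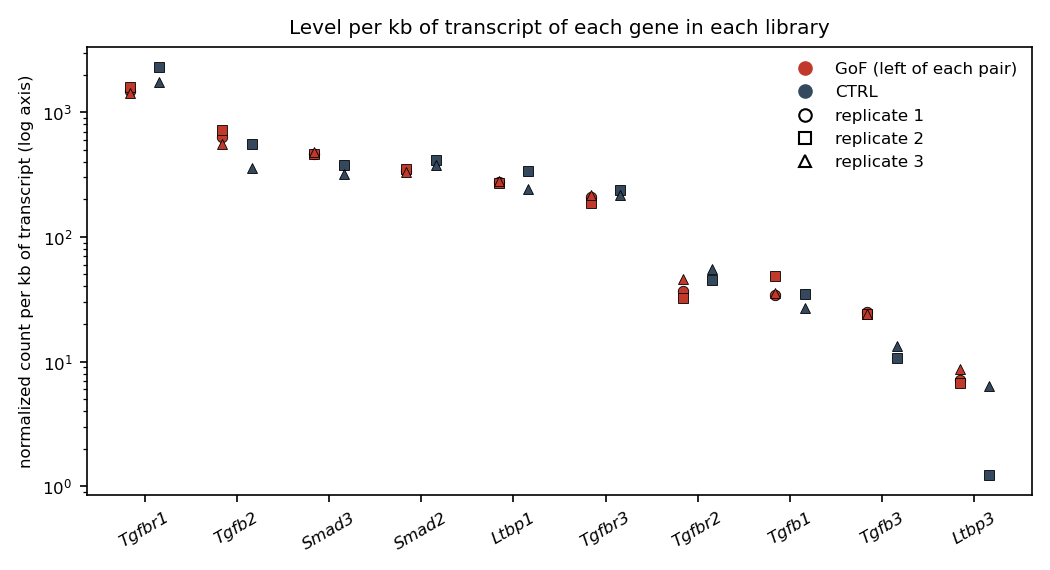
Normalized count per kb of longest transcript (y axis, log scale) of the 10 genes, ordered by mean over all libraries; GoF points stand left of CTRL points and symbols give the replicate. Tgfbr1 lies highest in every library and the lowest point is Ltbp3 in CTRL replicate 2, at 1.23 per kb.

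Among the ligands, Tgfb2 made up nearly all of the message per kb. Its share of the 3 ligands was 91.5%, 90.9% and 90.4% in GoF replicates 1, 2 and 3, against 92.5% and 90.0% in CTRL replicates 2 and 3. The groups overlapped. The share of Tgfb3 was 3.61%, 3.02% and 3.93% in GoF, against 1.77% and 3.33% in CTRL, and that of Tgfb1 was 4.86%, 6.11% and 5.72% in GoF, against 5.71% and 6.68% in CTRL. These shares are a description and were not tested.

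Tgfb2 (chromosome 1, 186622792 to 186705989, minus strand) had 3264, 3683 and 2845 normalized counts in GoF replicates 1, 2 and 3, against 2870 and 1838 in CTRL replicates 2 and 3. The lowest GoF library lay just under the higher control, so the groups overlapped, and the controls differed from each other 1.56-fold. The log2 fold change was 0.50 (SE 0.19, 95% interval 0.071 to 0.93) and did not pass (limma adjusted p = 0.0863). The GC content of its transcript is 46.9%, in a decile of genes whose median log2 fold change was -0.065. Removing the GC trend gave it a log2 fold change of 0.58 (limma adjusted p = 0.0927). Without CTRL replicate 2, the log2 fold change was 0.82, and without CTRL replicate 3 it was 0.18. The size of the Tgfb2 change thus depended on which control was used. In the authors' deposited table Tgfb2 had a log2 fold change of 0.47 and an adjusted p of 0.0403.

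Tgfb3 (chromosome 12, 86056745 to 86079041, minus strand), a ligand known in mice for palate fusion, had 85.1, 80.9 and 81.7 normalized counts in GoF, against 36.3 and 44.9 in CTRL. Every GoF library was well above both controls, and the GoF libraries differed from each other by at most 1.05-fold. The counts rest on 83, 100 and 101 reads in GoF and on 31 and 36 reads in CTRL, and exons of 2 gene models on the opposite strand overlap it, whose reads cannot be told apart from its own without a stated strand setting. It rose 2.02-fold (log2 fold change 1.01, SE 0.26, limma adjusted p = 0.0300). In the decile of genes with its GC content (53.0%) the median log2 fold change was 0.30 and 20.1% were called higher. With the GC trend removed the log2 fold change was 0.73 (SE 0.25, limma adjusted p = 0.117), and the call was lost without GoF replicate 1 (limma adjusted p = 0.167), 2 (0.0857) or 3 (0.0797). The log2 fold change was 0.86 without CTRL replicate 2 and 1.16 without CTRL replicate 3.

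Tgfb1 (chromosome 7, 25687002 to 25705077, plus strand), the ligand best known from blood vessels and immune cells, had 87.2, 124.6 and 90.6 normalized counts in GoF, against 89.1 and 68.6 in CTRL. GoF replicate 2 stood above the rest, and the groups overlapped. Its log2 fold change was 0.34 (SE 0.27, 95% interval -0.27 to 0.96) and did not pass (limma adjusted p = 0.374). With the GC trend removed it was 0.093 (limma adjusted p = 0.853). All 3 ligands thus had positive log2 fold changes, under each of the 3 other scalings as well.

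Among the receptors, Tgfbr1 (chromosome 4, 47353222 to 47414931, plus strand) had 8459, 9243 and 8207 normalized counts in GoF, against 13206 and 10079 in CTRL. All GoF libraries were below both controls, and the gap between the controls, 1.31-fold, was larger than the range within GoF, 1.13-fold. It fell to 0.75 of the CTRL level (log2 fold change -0.42, SE 0.12, limma adjusted p = 0.0384). At 41.0% its transcript had the lowest GC content of the 10. In its decile by GC content 24.5% were called lower, and the median log2 fold change was -0.29. With the GC trend removed the log2 fold change was -0.10 (SE 0.10, 95% interval -0.34 to 0.14, limma adjusted p = 0.568). The call was lost without GoF replicate 1 (limma adjusted p = 0.0882), 2 (0.0652) or 3 (0.0924) and without CTRL replicate 2 (0.0883), and with quantile normalization (log2 fold change -0.20, limma adjusted p = 0.122) or the total without mitochondrial genes (-0.27, limma adjusted p = 0.0734).

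Tgfbr2 (chromosome 9, 116084293 to 116175360, minus strand), the type II receptor that binds the ligand, had 300.4, 260.4 and 374.6 normalized counts in GoF, against 363.5 and 449.2 in CTRL. GoF replicate 3 reached into the control range. A log2 fold change of -0.39 (SE 0.19, 95% interval -0.83 to 0.054) did not pass (limma adjusted p = 0.172), and it was -0.46 with the GC trend removed (limma adjusted p = 0.175). Per kb, Tgfbr1 exceeded Tgfbr2 by 39.6, 49.9 and 30.8 times in GoF and by 51.1 and 31.5 times in CTRL.

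Tgfbr3 (chromosome 5, 107106570 to 107289629, minus strand) encodes betaglycan, a co-receptor that presents ligand, TGF-beta 2 above all, to the type II receptor. It had 1265, 1137 and 1317 normalized counts in GoF, against 1453 and 1314 in CTRL. GoF replicate 3 and CTRL replicate 3 differed little, and the groups overlapped. The log2 fold change was -0.16 (SE 0.11, 95% interval -0.41 to 0.089, limma adjusted p = 0.308) and stayed at -0.16 with the GC trend removed. All 3 receptors thus had negative log2 fold changes, under each of the 3 other scalings as well, but 2 of them did not pass. For Tgfbr3 the value was close to 0 with the total without mitochondrial genes (-0.0099, limma adjusted p = 0.955).

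The receptor-activated Smads had log2 fold changes of opposite sign, of which that of Smad3 passed. Smad3 (chromosome 9, 63646767 to 63757994, minus strand) had 2361, 2338 and 2462 normalized counts in GoF, against 1910 and 1642 in CTRL. All GoF libraries were above both controls. It rose 1.35-fold (log2 fold change 0.43, SE 0.10, limma adjusted p = 0.0195). Its transcript has a GC content of 53.1%, in the same decile of genes as Tgfb3, and with the GC trend removed the log2 fold change was 0.14 (SE 0.11, 95% interval -0.11 to 0.39, limma adjusted p = 0.450). The limma adjusted p was 0.0822 without GoF replicate 1, 0.0533 without replicate 2 and 0.0519 without replicate 3. The call was thus lost each time. Without CTRL replicate 2 the log2 fold change was 0.54, and without CTRL replicate 3 it was 0.32.

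Smad2 (chromosome 18, 76241580 to 76310963, plus strand) had 2757, 2815 and 2676 normalized counts in GoF, against 3332 and 3061 in CTRL. All GoF libraries were below both controls, by a small margin. Its log2 fold change was -0.22 (SE 0.084, 95% interval -0.41 to -0.024) and did not pass (limma adjusted p = 0.0950). With the GC trend removed it was -0.047 (limma adjusted p = 0.729), and without CTRL replicate 3 it was -0.28.

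The ratio of Smad2 to Smad3 per kb is not changed by a single scaling factor per library. It was 0.735, 0.757 and 0.684 in GoF replicates 1, 2 and 3, against 1.10 and 1.17 in CTRL replicates 2 and 3. The GoF ratios were all below the CTRL ratios. Which gene was above the other depended on the length used: per coding kb, an alternative chosen after seeing the data, the ratio was 1.06, 1.10 and 0.989 in GoF, against 1.59 and 1.70 in CTRL. The Smad3 transcript has a GC content 8.26 percentage points above that of Smad2. With the GC trend removed, the log2 difference between Smad2 and Smad3 as normalized counts, not per kb, was 0.41, 0.49 and 0.26 in GoF against 0.45 and 0.69 in CTRL, and the groups overlapped. No test was made of this ratio.

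Of the latent binding protein genes, Ltbp1 (chromosome 17, 75005568 to 75392512, plus strand) had 1830, 1795 and 1875 normalized counts in GoF, against 2250 and 1625 in CTRL. The GoF libraries all lay between the controls. Its log2 fold change was -0.061 (SE 0.14, 95% interval -0.37 to 0.25, limma adjusted p = 0.767), and its sign turned when libraries were scaled to the total without mitochondrial genes (0.088) or CTRL replicate 2 was left out (0.17). Without CTRL replicate 3 it was -0.30.

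Ltbp3 (chromosome 19, 5740904 to 5758532, plus strand) was scarce, with 41.0, 38.8 and 50.2 normalized counts in GoF, against 7.03 and 36.2 in CTRL. These rest on 40, 48 and 62 reads in GoF and on 6 and 29 reads in CTRL. The controls thus differed more from each other than CTRL replicate 3 did from GoF. The log2 fold change was 1.35 (SE 0.63, 95% interval -0.096 to 2.80) and did not pass (limma adjusted p = 0.150). It was 0.25 without CTRL replicate 2 and 2.46 without CTRL replicate 3, so its size depended on which control was used.

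**Figure D3:**
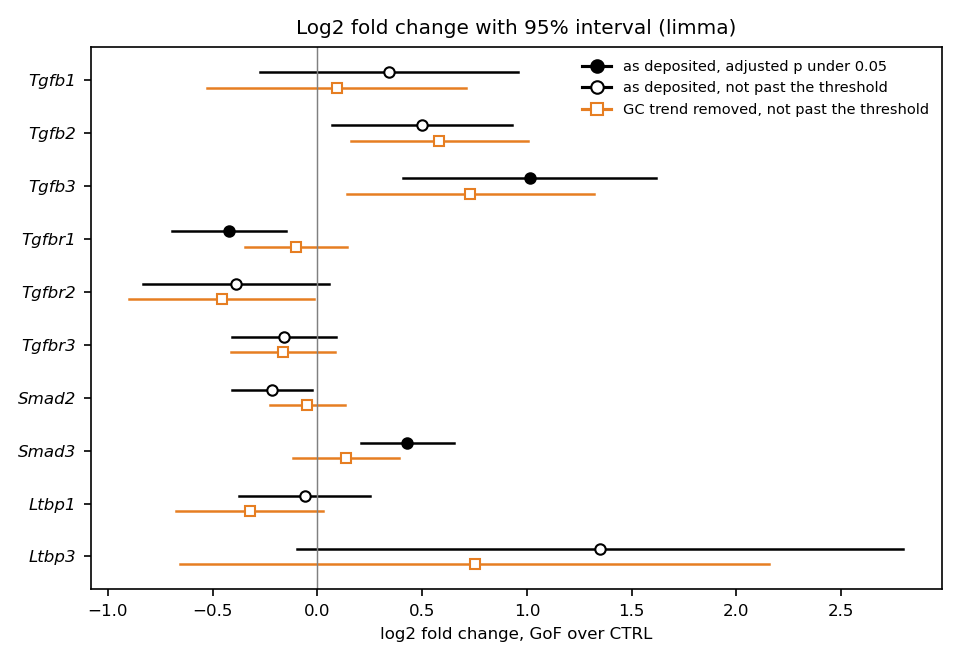
Log2 fold change of GoF over CTRL (x axis) with its 95% interval for the 10 genes, from limma on the deposited normalized counts (black) and with the GC trend removed (orange); filled symbols passed an adjusted p of 0.05. The filled symbols are those of Tgfb3 (1.01), Tgfbr1 (-0.42) and Smad3 (0.43); with the GC trend removed none is filled.

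The order of the 10 log2 fold changes resembled their order by GC content (Spearman rho = 0.73 over 10 genes, a description with no test, as the genes share their libraries). In the decile of all genes with the highest GC content, which holds Ltbp3 at 58.3%, 40.3% were called higher and the median log2 fold change was 0.65. Tgfb1, Tgfb3, Smad3 and Ltbp1 lie in 1 decile by GC content (52.2% to 54.3%), with log2 fold changes of 0.34, 1.01, 0.43 and -0.061 around the median of that decile, 0.30. Tgfb3 stood above that median, Ltbp1 below it, and Tgfb1 and Smad3 near it. All 10 genes kept the sign of their log2 fold change with the GC trend removed, and their median was then 0.023.

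**Figure D4:**
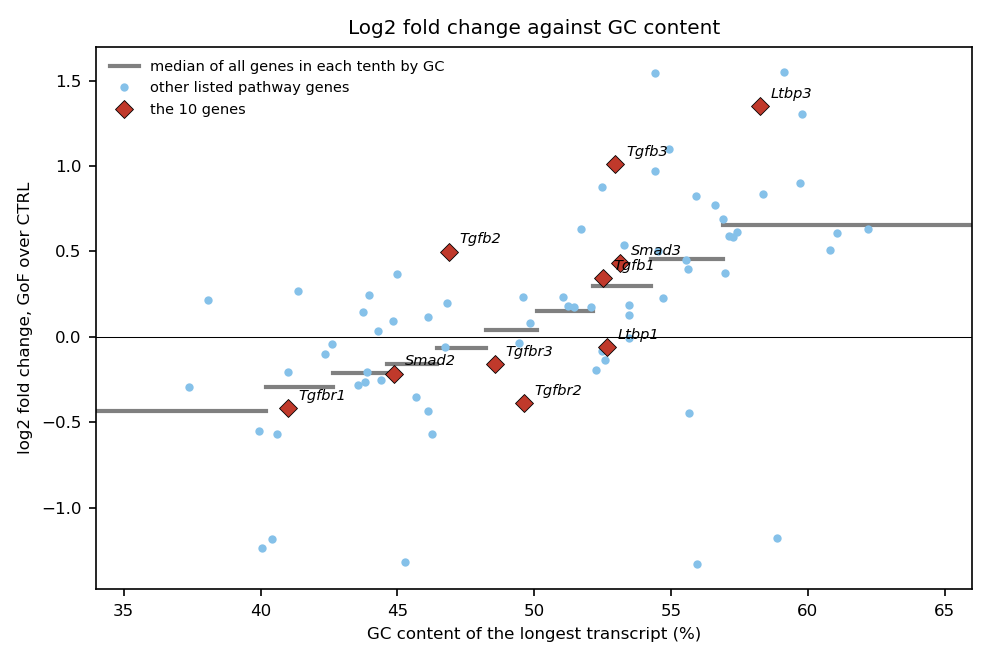
Log2 fold change of GoF over CTRL (y axis) against the GC content of the longest transcript (x axis, 34% to 66%, so the outer deciles are cut off) for the 10 genes (diamonds) and the other listed pathway genes (dots); grey bars are medians of all genes in each decile by GC content. The medians climb with GC content. Tgfb1, Tgfb2, Tgfb3, Smad3 and Ltbp3 lie above and Tgfbr1, Tgfbr2, Tgfbr3, Smad2 and Ltbp1 below the bar of their own decile.

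Other genes of the pathway were read from a list of 77 genes in 6 groups by role, of which 68 were in the table and were tested. Of these 68, 8 rose and 9 fell, and 51 did not pass (limma, background 12.2% and 10.9%). The median log2 fold change was 0.18, against -0.0073 over all genes tested. With the GC trend removed 1 was higher and 7 lower of 66 with a GC value (3.11% and 3.33% of all genes), and the median was 0.024. Leaving out GoF replicate 1 gave 4 higher and 5 lower (4.04% and 3.30% of all genes), and leaving out CTRL replicate 3 gave 21 higher and 17 lower (16.3% and 15.2%).

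Among 13 genes of the latent complex and ligand activation, Furin rose, Itgb8 fell and 11 did not pass (limma, against 12.2% higher and 10.9% lower of all genes). Itgb8, the beta chain of an integrin that frees TGF-beta from its latent complex, had 911, 931 and 914 normalized counts in GoF, against 2277 and 1911 in CTRL. It fell to 0.44 of the CTRL level (log2 fold change -1.18, SE 0.11, limma adjusted p = 0.00235). Its call was kept without each of the 5 libraries in turn (limma adjusted p 0.00116 to 0.0138) and after the GC trend was taken out (log2 fold change -0.84, limma adjusted p = 0.00827). Furin, the protease that cuts the ligand precursor, had 344.5, 406.8 and 404.5 normalized counts in GoF, against 212.2 and 220.9 in CTRL. It rose 1.77-fold (limma adjusted p = 0.0111), but did not pass after removal of the GC trend (limma adjusted p = 0.188). The fibrillin genes Fbn1 and Fbn2, whose matrix proteins hold latent complexes, passed as lower after that removal (log2 fold change -0.43, limma adjusted p = 0.0208 for Fbn1 and -0.39, 0.0455 for Fbn2) and not before it (0.119 for Fbn1 and 0.321 for Fbn2). They were named after their values were seen.

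Of 7 other receptors and co-receptors, Acvr2b rose, Acvr2a and Tdgf1 fell, and 4 did not pass (limma, against 12.2% higher and 10.9% lower of all genes). Acvr2b and Acvr2a encode type II receptors that bind activins. Acvr2b had 590.6, 657 and 576 normalized counts in GoF, against 379.9 and 250.8 in CTRL, a rise of 1.96-fold (limma adjusted p = 0.0121). Acvr2a had 3764, 3728 and 3875 in GoF, against 5892 and 5227 in CTRL, and fell to 0.68 (limma adjusted p = 0.00676). Tdgf1, the Nodal co-receptor Cripto, had 94.3, 50.1 and 82.5 in GoF, against 187.6 and 180.9 in CTRL, and fell to 0.400 (limma adjusted p = 0.0200). After removal of the GC trend the 3 calls were lost, at a log2 fold change of 0.59 for Acvr2b against 0.97 before (limma adjusted p = 0.111), -0.19 against -0.55 for Acvr2a (0.126) and -1.17 against -1.32 for Tdgf1 (0.0558), and without GoF replicate 1 they were kept. The Tdgf1 call was lost without CTRL replicate 2 (limma adjusted p = 0.0589).

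Of 10 other Smads and Smad adaptors, 3 rose, 2 fell and 5 did not pass (limma, against 12.2% higher and 10.9% lower of all genes). The genes that rose encode repressors that bind Smads: Tgif1 rose 1.29-fold, Tgif2 2.15-fold and Ski 1.32-fold. The 5 that did not pass had log2 fold changes of -0.20 (Skil, the Ski-like gene), -0.037 (Smad4), 0.51 (Smad6), 0.69 (Smad7) and 1.55 (Foxh1). Tgif1 had 1349, 1373 and 1370 normalized counts in GoF, against 1031 and 1084 in CTRL (log2 fold change 0.37, limma adjusted p = 0.0275), and passed also with the GC trend removed (log2 fold change 0.53, limma adjusted p = 0.0226). The value of Ski turned to -0.058 with the GC trend removed, and Tgif2 did not pass there (log2 fold change 0.69, limma adjusted p = 0.208). Zfyve9, also called SARA, anchors SMAD2 and SMAD3 near the receptor. It had 2186, 2089 and 2226 normalized counts in GoF, against 3362 and 3086 in CTRL, and fell to 0.67 (limma adjusted p = 0.00658, or 0.0239 once the GC trend was removed). Trim33, a ubiquitin ligase that binds activated Smads, fell to 0.83 (limma adjusted p = 0.0344, or 0.671 once the GC trend was removed). The calls of Tgif1, Tgif2, Ski and Trim33 were lost without GoF replicate 1, 2 or 3 (limma adjusted p 0.0684 to 0.196), and that of Ski without CTRL replicate 3 (0.0612). Zfyve9 kept its call without each library in turn.

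Of 20 genes listed as responsive to TGF-beta, 3 rose, 4 fell and 13 did not pass (limma, against 12.2% higher and 10.9% lower of all genes). Cdkn1a, the cell cycle inhibitor p21, had 182.5, 187.7 and 200.6 normalized counts in GoF, against 85.6 and 48.7 in CTRL, a rise of 2.91-fold (limma adjusted p = 0.00935, or 0.0530 once the GC trend was removed). Snai1, a transcription factor of epithelial to mesenchymal transition, rose 2.47-fold (limma adjusted p = 0.0169), and did not pass without GoF replicate 1 (limma adjusted p = 0.112) or 3 (0.0535) or after removal of the GC trend (0.194). Itga5, the fibronectin receptor chain, rose by 0.58 on the log2 scale (limma adjusted p = 0.0117, or 0.850 once the GC trend was removed). Col1a1, a chain of type I collagen, had 851, 776 and 977 normalized counts in GoF, against 1426 and 2687 in CTRL. It fell to 0.44 (log2 fold change -1.18, SE 0.24, limma adjusted p = 0.0144), and Col1a2, the partner chain, fell to 0.73 (limma adjusted p = 0.0169). Both collagen calls were lost without GoF replicate 1 (limma adjusted p = 0.0633 each) and kept with the GC trend removed (0.00993 each), and that of Col1a2 was lost without GoF replicate 2 (0.0530). Zeb2, a repressor of epithelial genes, fell to 0.67 (limma adjusted p = 0.0103, or 0.112 once the GC trend was removed). Zeb1, named because it completes the 4 that fell, had a log2 fold change of -0.43 (limma adjusted p = 0.0206) and did not pass without GoF replicate 1 (0.0587) or 2 (0.0671) or CTRL replicate 2 (0.0506), or after removal of the GC trend (log2 fold change -0.31, limma adjusted p = 0.0773). Fn1, fibronectin, passed as lower after that removal (-0.32, limma adjusted p = 0.0424) and not before it (0.949), and was named after its values were seen. Members of the list thus went both ways, and these genes also respond to other signals.

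The 5 measured ligands of the activin and Nodal class all missed the threshold (limma; 1 had an unadjusted p under 0.05, 0 were called by DESeq2 and 0 by edgeR). Gdf11, the most abundant of them, had 713, 678 and 666 normalized counts in GoF, against 709 and 741 in CTRL. None of 13 genes of receptor and Smad turnover and of antagonists passed either (limma; 1 had an unadjusted p under 0.05, 0 were called by DESeq2 and 0 by edgeR). The most abundant, Strap, which encodes a receptor-associated protein, had a log2 fold change of -0.25 (SE 0.12, limma adjusted p = 0.151), and passed without CTRL replicate 3 (0.0173).

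**Figure D5:**
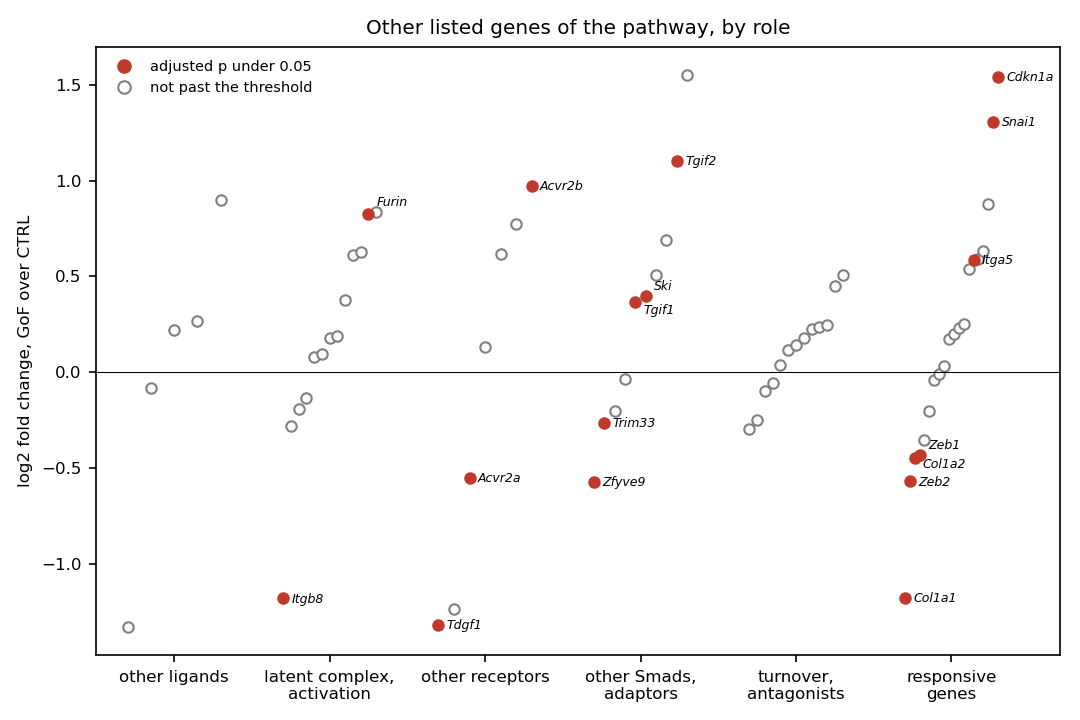
Log2 fold change of GoF over CTRL (y axis) of the 68 other listed pathway genes, grouped by role and ordered by value within a group; filled red points passed a limma adjusted p of 0.05 and are named. Filled points lie on both sides of 0 in 4 of the 6 groups and are absent from the other ligands and from the turnover genes.

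The genes most like each ligand over the 5 libraries were those with the smallest root mean square difference of log2 values centred on the gene's mean. For Tgfb3 they were Meis3 (0.024), a Hox cofactor gene, Bmp1 (0.039), which encodes a matrix protease, and Dhcr7 (0.043), of cholesterol synthesis. For Tgfb2 they were Arhgap24 (0.045), Btbd18 (0.054) and Tbkbp1 (0.061), and for Tgfb1 Sox4 (0.062), Metap1d (0.064) and Gprin1 (0.077). With 5 libraries many genes come this close: of 11210 genes compared, 85 lay within 0.1 of Tgfb3, 54 of Tgfb2 and 16 of Tgfb1.

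Markers of other cell types were set beside these values. Neural crest markers, all 8 of them measured, summed to 8022 to 9105 normalized counts in GoF and 5404 to 6762 in CTRL, with 2 called higher. Blood markers, 7 of 7 measured, summed to 13800 to 17661 in GoF and 6898 to 11068 in CTRL, with 2 called higher. Neither sum overlapped between the groups, nor did that of the second heart field markers, lower in GoF, of which 1 was called lower. Of all single genes tested, 54.9% did not overlap between the groups either. The median log2 fold change was 0.68 for neural crest, 0.45 for blood and 0.036 for second heart field markers. The second heart field median was thus not lower in GoF, unlike the sum. The part of these cell types in the changes of Tgfb3, Smad3 and Tgfbr1 was not tested, nor was that of the mitochondrial share. The summed levels of cardiomyocyte (62558 to 63136 in GoF, 53449 to 62579 in CTRL), smooth muscle (6002 to 6177 in GoF, 4430 to 6233 in CTRL), endothelial (8549 to 9461 in GoF, 9390 to 11346 in CTRL), endodermal (4529 to 4810 in GoF, 3457 to 5340 in CTRL), neural tube (4603 to 5028 in GoF, 4501 to 5381 in CTRL) and liver bud markers (523 to 598 in GoF, 139.8 to 776 in CTRL) overlapped. Within these lists 3 of 7 cardiomyocyte, 3 of 8 endodermal, 1 of 8 endothelial and 1 of 6 neural tube markers were called higher, and 2 of 8 endothelial markers lower (limma, against 12.2% and 10.9% of all genes). With the GC trend removed, 1 neural crest and 1 cardiomyocyte marker were higher, and 1 blood, 1 second heart field, 1 endothelial, 2 cardiomyocyte and 2 neural tube markers lower (3.11% and 3.33% of all genes). Of 5 macrophage markers 1, Csf1r, was in the table, at 9.71 to 21.8 in GoF and 11.2 to 51.6 in CTRL. No measured marker was listed at 0 in a library except Ttr, of the liver bud list.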

How the data were processed

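The members and the gene lists were chosen with earlier results of these data known. From 2 ng of total RNA, amplified cDNA was prepared by single primer isothermal amplification, per the labels' protocols. Tools in the submitters' processing notes are STAR 2.5.2, bcl2fastq 2.17.1.14, DESeq2, HTSeq and R, with the build mm10. Which annotation, strand setting and filters were used is not given in the sources used here. The authors' deposited signal, here the normalized count, is reads over a size factor of each library: 100% of values lay within 0.001 of a whole multiple of 1 read, so whole reads were recovered. The authors' deposited log2 fold changes, test score and p-values were copied, not recomputed. No counting intervals were used, because amplified reads are not independent molecules.

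The design allowed for raw counts or normalized values; as the values are normalized, limma 3.58.1 (R 4.3.3, eBayes with trend and robust) was run on log2(normalized count + 1) for genes averaging 10 or more, and DESeq2 1.42.0 and edgeR 4.0.16 were run on the recovered reads as alternatives. Fits were tested on simulated counts of independent libraries with no GC trend. That simulation cannot speak to calls affected by the GC trend or by the likeness of GoF replicate 1 to the other GoF libraries. Genes named are the 10 members and, of each list group, up to 3 called higher and up to 3 called lower with the lowest adjusted p, or the most abundant where none was called. GC content, lengths and coordinates are those of GENCODE M21 (GRCm38, the same assembly as mm10), matched by symbol for 16302 of 16832 genes (96.9%), and for 66 of the 68 listed genes measured. The GC trend was removed by subtracting, per library, a lowess curve (span 0.3) of the deviation from the gene mean. A real change that tracked GC content would be removed with it.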

Additional observations from a re-analysis of the deposited data

How the results depend on the processing

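Of the 10 members, no call held under every alternative. The counts were 2 members higher and 1 lower, 8 and 9 listed genes, and 2054 and 1835 of all genes. Members called higher or lower were 0 and 0 with the GC trend removed (limma; 3 at an unadjusted p under 0.05), with it removed and GoF replicate 1 left out (1), with the replicate block (4) and with the block and the GC trend removed (1). They were 1 and 0 with eBayes without trend and robust (2), and 3 and 0 with quantile normalization and with the total without mitochondrial genes. Leaving out 1 library gave 0 to 3 members higher and 0 to 3 lower (0 and 0 without any 1 GoF replicate, 3 to 5 at an unadjusted p under 0.05). Listed genes called higher were 16 with the total without mitochondrial genes, 5 with eBayes without trend and robust, 1 with the GC trend removed, 0 with it removed and GoF replicate 1 left out (3 were lower), 4 with the replicate block, and 0 with the block and the GC trend removed (3 were lower); 2 were lower with eBayes without trend and robust. Leaving out 1 library gave 4 to 21 higher and 5 to 17 lower.

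Of all genes, 932 were higher and 467 lower with eBayes without trend and robust, 506 and 542 with the GC trend removed, 52 and 66 with it removed and GoF replicate 1 left out, 765 and 606 with the replicate block, and 73 and 90 with the block and the GC trend removed. Leaving out 1 library gave 678 to 2734 higher and 554 to 2552 lower. Scaling to the total without mitochondrial genes gave 2897 higher and 890 lower, so 76.5% of calls were higher against 52.8%, and moved the median log2 fold change of all genes to 0.14, against -0.0073 without it; Ltbp1, at 0.088, was below that median.

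Signs turned for Ltbp1 (0.088 with the total without mitochondrial genes, 0.17 without CTRL replicate 2, while it was -0.30 with no change of sign without CTRL replicate 3), Gdf11 (0.067 with the total without mitochondrial genes) and Ski (-0.058 with the GC trend removed, -0.042 with it removed and GoF replicate 1 left out, -0.043 with the block and the GC trend removed); the cause was not tested. Replicate numbers 2 and 3 occur in both groups, but deviations of same-numbered libraries did not correlate (r = 0.0068 and 0.0025 over 16794 genes). With 2 controls, the deviation of the one mirrors that of the other, so the r values are not separate checks. They cannot tell whether same-numbered samples share more than a number, and the labels do not say. Where CTRL replicate 2 or 3 was left out, the lone control was assumed to vary like the GoF libraries. As GoF replicate 1 resembled an average of GoF replicates 2 and 3, that spread may be too small. Calls from those fits may therefore be too many. Counted per coding kb, the mean share of Tgfb2 among the ligands in GoF was 94.1% rather than 90.9%. With 6 to 101 reads per library, Ltbp3 and Tgfb3 carry the least depth. A mean of at least 50 left Ltbp3 untested. Leaving out CTRL replicate 1 was not run, as that library was not analysed here.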
